A study of Mus musculus with 4 samples.

Results

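Ccl3 and Ccl4 are a pair of chemokine genes that were read in single brain cells of mice with amyloid pathology. They were chosen by name, as 2 of the 397 genes of a targeted immune panel. No limit on their values was used, but earlier results of these data were known at the time. All 4 mice were males aged 9 months that carried the 5XFAD transgenes, which drive human genes with familial Alzheimer's mutations from the neuronal Thy1 promoter. The genotypes compared were Abi3+/+ (2 mice) and Abi3-/- (2 mice), the latter a constitutive deletion of the Abi3 locus in all cells. The mice kept for analysis in the study carried 1 copy of the SJL allele of Trem2. Abi3 lies on the same chromosome as Ccl3 and Ccl4, and no probe for it was on the panel, so the deletion could not be checked in these libraries. Cells came from the right hemisphere without cerebellum and olfactory bulb, after removal of myelin, and each mouse gave 1 library. What sets the 2 mice of a genotype apart and what sets their libraries apart cannot be told apart.

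Ccl3 and Ccl4, also called macrophage inflammatory proteins, are small secreted proteins that attract monocytes, T cells and other leukocytes. Ccl3 acts through the receptor Ccr1, among others. Microglia, the resident macrophages of the brain, transcribe both genes after inflammatory stimuli, and cytotoxic T cells release them on activation. Around amyloid plaques microglia take on a disease-associated state, with more Apoe (a lipid carrier) and Cst7 (an inhibitor of lysosomal proteases). Immediate early genes such as Jun, Junb, Fosb and Egr1 encode transcription factors that are made within minutes of a stimulus. The questions asked of the pair were which cells held their reads, how they varied with these microglial states, whether they were read in the same cells, and whether they differed between Abi3 genotypes.

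The genes are neighbours on mouse chromosome 11 (RefSeq, GRCm38.p6, the assembly of the mm10 build that the labels name). Ccl3 spans chr11:83647843-83649378 and Ccl4 spans chr11:83648624-83664683, so that their annotated spans overlap, and the places of the panel's primers within them were not used here. The stretch of 250 bases before the annotated start of Ccl3 is shown because it is the only regulatory sequence of the pair in the RefSeq table used (chr11:83649379-83649628, minus strand, 5′ to 3′). Capitals mark each match to TATAA on either strand.
Ccl3 promoter: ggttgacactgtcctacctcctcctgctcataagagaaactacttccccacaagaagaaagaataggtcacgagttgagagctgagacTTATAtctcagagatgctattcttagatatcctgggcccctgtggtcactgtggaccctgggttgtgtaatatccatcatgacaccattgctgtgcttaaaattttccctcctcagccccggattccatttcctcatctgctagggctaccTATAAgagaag
TATAA began 162 bases before the start on the opposite strand and 11 bases before it on the coding strand, and 22.8% of the 32851 promoter windows of the same length held such a match on either strand. No match was found in this window to TATAAA (held by 12.4% of windows), to the AP-1 site TGANTCA (6.75%), to TGACGTCA (1.55%), to the kB site of the immunoglobulin kappa enhancer (0.14%), to the NF-kB consensus (3.9%), to CCAAT (33.9%) or to TTGCNNNAA (8.29%), all searched on both strands. TATAAA contains TATAA, so that these 2 shares overlap. Ccl4 was not in the table.

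After cells with fewer than 40 genes detected, or more reads than the study's upper limit, were left out, 13820 of 21172 cells remained, 2321 to 4499 per mouse, with median depths of 19648 to 24283 reads per cell. The values are reads and not molecules, and every kept cell with any read of Ccl3 or Ccl4 had at least 7 of them, so a share of cells with a read is little affected by single stray reads. Primers differ between genes, so reads of Ccl3 were not compared with reads of Ccl4, and only shares of cells were set side by side. Libraries shared 6 to 18 cell indexes per pair, against 8.41 to 19.3 expected from the number of indexes. Clusters called microglia-like had reads of 10 or 11 of 11 microglial markers in most cells.

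Most reads of both genes lay in microglia. Clusters were formed without Ccl3 and Ccl4, and 12659 cells in 11 clusters were called microglia-like from markers such as Cx3cr1, Trem2, C1qa and Adgre1. Among microglia-like cells, a Ccl3 read was found in 37.1% (Abi3+/+ mouse 1), 38.6% (Abi3+/+ mouse 2), 31.6% (Abi3-/- mouse 1) and 44.3% (Abi3-/- mouse 2). For Ccl4 the shares were 33.4%, 32.5%, 27.6% and 32.8% in the same order. Both genes were thus read in a sizeable minority of the microglia-like cells of every mouse, and the Abi3-/- mice held both the lowest and the highest Ccl3 share. The level of Ccl3 was 57.6, 64.8, 32.2 and 58.6 reads per 10000 panel reads, and that of Ccl4 was 43.5, 52.4, 21.5 and 39.6. Abi3-/- mouse 1 was the lowest of the 4 mice for both genes and on both measures. Microglia-like cells were 85.8% to 93.9% of the kept cells of a mouse and held 91.3% to 97.8% of its Ccl3-positive cells and 88.5% to 97.3% of its Ccl4-positive cells.

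**Figure D1:**
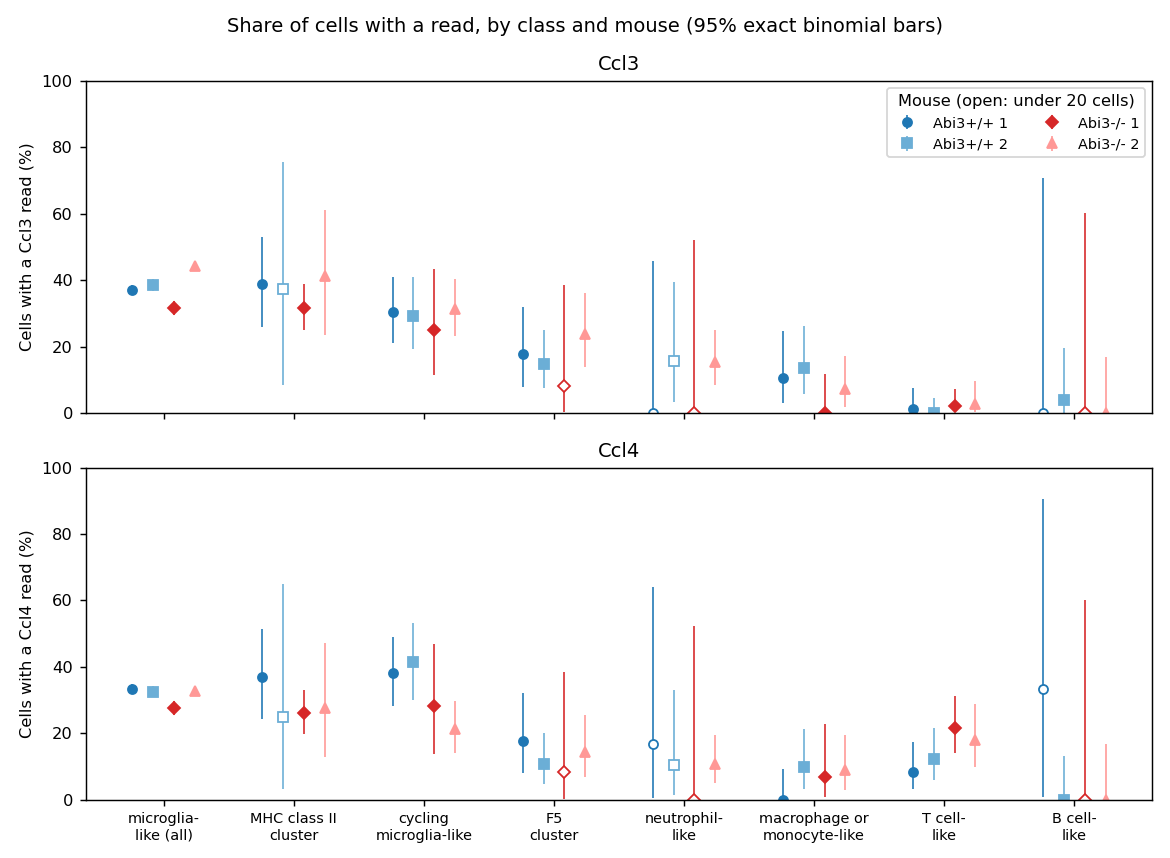
Percent of cells with a Ccl3 read (upper panel) and a Ccl4 read (lower panel) in each cell class, for each of the 4 mice, with exact binomial 95% bars and open symbols where a mouse had under 20 cells of the class. Microglia-like cells lie between 27.6% and 44.3% for both genes, and T cell-like cells lie near 0 for Ccl3 and between 8.33% and 21.6% for Ccl4.

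T cell-like cells, led by Nkg7, Trbc2 and Cd8a, held Ccl4 largely without Ccl3. There were 72, 81, 97 and 72 of them in Abi3+/+ mice 1 and 2 and Abi3-/- mice 1 and 2. Ccl4 was read in 8.33% (6 cells), 12.3% (10 cells), 21.6% (21 cells) and 18.1% (13 cells) of them. Both Abi3-/- mice were above both Abi3+/+ mice here, but their exact binomial 95% intervals of 13.9% to 31.2% and 9.98% to 28.9% overlap with those of the Abi3+/+ mice, 3.12% to 17.3% and 6.08% to 21.5%. Ccl3 was read in 1, 0, 2 and 2 of these cells, a mean share of 1.56% ± 1.18 (SD, n = 4 mice), and the count of 0 of 81 cells allows a share of up to 3.70%. Only 2 T cell-like cells in all had reads of both genes. Among T cell-like cells with a read of Cd8a, the coreceptor of cytotoxic T cells, 11.1%, 16.7%, 28.6% and 24.4% had a Ccl4 read, and among those without one the shares were 0%, 6.06%, 3.70% and 7.41%. Most Ccl4-positive T cell-like cells of every mouse thus had a Cd8a read. Cells with a Cd8a read were also deeper, with median depths of 17175, 20139, 18198 and 17423 reads against 14200, 13180, 15333 and 12100, and the part of depth was not tested. The Ccl4 level did not follow the share in Abi3-/- mouse 2, where it was 4.48 reads per 10000 with a Cd8a read and 16.5 without. At 5.10 ± 2.46 reads per 10000 (n = 4 mice), the Ccl4 level of T cell-like cells was below that of microglia-like cells, 39.3 ± 13, in every mouse. Since Ccl4 reads occurred here with hardly any Ccl3 reads, reads of the pair did not simply mirror each other.

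B cell-like cells, led by Igkc and Cd79a, were looked at as a possible measure of stray reads. Their median depths were 16830 and 13688 reads in the 2 mice that had at least 20 of them. Ccl3 was read in 1 of 26 and 0 of 20 of these cells, and Ccl4 in 0 of 26 and 0 of 20, which allows a Ccl4 share of up to 11.5% and 15.0%. The Ccl3 share of T cell-like cells lay at this background, and at this depth the B cell-like cells are too few to set a low limit for Ccl4.

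Macrophage or monocyte-like cells, led by Chil3, Clec10a, Cd163 and Ccr2, had fewer positive cells than microglia-like cells in each mouse. Ccl3 was read in 4 of 38, 7 of 51, 0 of 29 and 4 of 56 of them, a mean of 7.85% ± 5.88 (SD, n = 4 mice), and Ccl4 in 0, 5, 2 and 5, a mean of 6.41% ± 4.44. These cells were deeper than microglia-like cells, with medians of 31472 to 40444 reads against 19788 to 24213, so their lower shares did not go with lower depth. Neutrophil-like cells, led by S100a8, Mmp9 and Cxcr2, came mainly from Abi3-/- mouse 2 (84 of 114 cells). In that mouse 15.5% had a Ccl3 read (exact binomial 95% interval 8.51% to 25%) and 10.7% a Ccl4 read (5.02% to 19.4%). Pooled over the other 3 mice, 3 of 30 neutrophil-like cells, or 10%, had a Ccl3 read and as many had a Ccl4 read. Among these 4 classes, microglia-like cells thus had the highest Ccl3 share in each mouse. Macrophage or monocyte-like shares lay above T cell-like shares in 3 of 4 mice, and the neutrophil-like share, which rests on 1 library, could not be placed apart from the macrophage or monocyte-like share. For Ccl4, the neutrophil-like share of that mouse lay within the range of the T cell-like shares, and the T cell-like share lay above the macrophage or monocyte-like share in each of the 4 mice, although their exact binomial 95% intervals overlapped in each.

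A cluster led by MHC class II genes (Cd74, H2-Aa) and Cxcl9 had shares like those of microglia-like cells. It also had reads of 11 of 11 microglial markers in most cells, and was kept apart from the microglia-like class only for its leading genes. In the 3 mice with at least 20 such cells, Ccl3 was read in 38.9%, 31.7% and 41.4% of them and Ccl4 in 37%, 26.1% and 27.6% (Abi3+/+ mouse 1, Abi3-/- mice 1 and 2). Of its 271 cells, 180 came from Abi3-/- mouse 1, so that it may stand for that library rather than for a cell type. A cluster led by F5 and Thbd, with 194 cells, had Ccl3 reads in 8.33% to 23.8% and Ccl4 reads in 8.33% to 17.8% of its cells per mouse.

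Within microglia-like cells, Ccl3 and Ccl4 were higher in cells with reads of both Apoe and Cst7 than in cells with reads of neither, and the difference passed the test for both genes. Reads of Apoe and Cst7 divided the cells into 4 states, with 5738 cells with neither, 2596 with Apoe only, 1102 with Cst7 only and 3223 with both. With neither read, Ccl3 was found in 27.6%, 28.1%, 21.9% and 31% of cells in Abi3+/+ mice 1 and 2 and Abi3-/- mice 1 and 2. With both reads it was found in 72%, 69.2%, 45.4% and 63.3%. The share was higher with both reads in all 4 mice, by the smallest step in Abi3-/- mouse 1, and the 2 sets of shares did not overlap. Ccl4 was found in 25%, 25.8%, 20.6% and 20.6% of cells with neither read and in 54.5%, 49.6%, 34.2% and 46.6% of cells with both. Cells with 1 of the 2 reads lay between these states for Ccl4 in all mice. For Ccl3 they did too, with means of 32.5% ± 4.60 with Apoe only and 39.6% ± 9.80 with Cst7 only (SD, n = 4 mice). The 2 intermediate states overlap between mice, and in Abi3-/- mouse 1 the Cst7-only share, 25%, lay below the Apoe-only share, 27%.

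**Figure D2:**
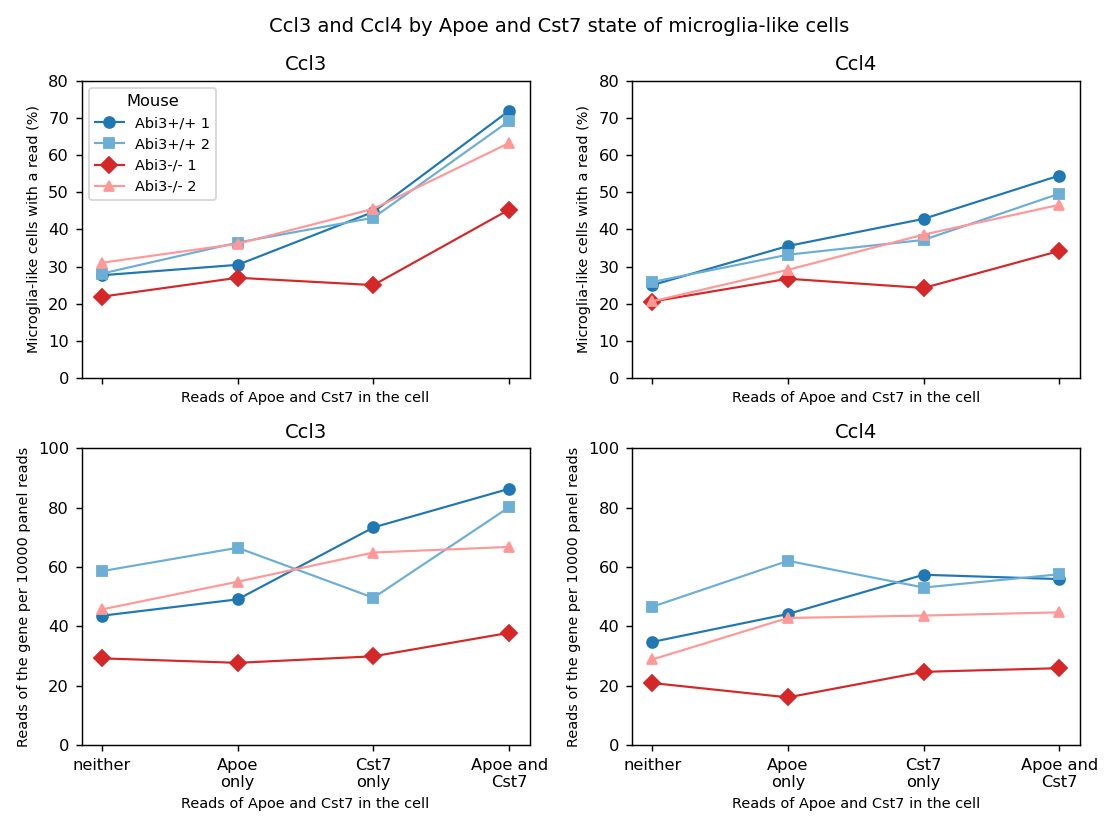
Percent of microglia-like cells with a read (upper row) and reads of the gene per 10000 panel reads (lower row) for Ccl3 (left) and Ccl4 (right) in the 4 states set by reads of Apoe and Cst7, 1 line per mouse. Cells with both reads have the highest share in each mouse for both genes, and Abi3-/- mouse 1 has the lowest share in cells with both reads, 45.4% for Ccl3 and 34.2% for Ccl4.

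Depth differed between these states, with medians of 16966 to 20988 reads per cell with neither read and 27622 to 31983 with both. With cells thinned to 10000 reads, after 12 to 233 microglia-like cells per mouse with fewer reads were dropped, the Ccl3 shares in cells with both reads were 72.5%, 69.9%, 45.4% and 64.3% and those with neither 28.2%, 28.2%, 22% and 32.1%. Since a positive cell holds many PCR reads of the gene, thinning hardly changes which cells are positive, and the part of depth in the step was not tested. The level over all cells, positive or not, went from 43.6, 58.6, 29.3 and 45.8 reads per 10000 with neither read to 86.4, 80.2, 37.9 and 66.8 with both for Ccl3. For Ccl4 it went from 34.8, 46.6, 20.9 and 28.9 to 56, 57.6, 25.9 and 44.8, so every mouse was higher with both reads on this scale too. Scaled to depth, the step lay in how many cells had a read rather than in the level of a positive cell. Among positive cells, the median level of Ccl3 was 66.9, 63.2, 41.9 and 48.9 reads per 10000 with both reads of Apoe and Cst7. With neither it was 63.8, 89.1, 57.1 and 61.3, so it was lower with both in 3 of 4 mice. Unscaled, positive cells held a median of 129, 196, 139.5 and 100 Ccl3 reads with neither and 187, 187, 134 and 143.5 with both. The median was thus higher with both in Abi3+/+ mouse 1 and Abi3-/- mouse 2 and lower in the others. Within the immediate early score groups described below, the unscaled Ccl3 medians were mostly higher with both. The exceptions were the middle group of Abi3-/- mouse 1 (195.5 with neither, 159 with both) and the upper group of Abi3+/+ mouse 2 (171.5 and 157).

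Reads were then summed per mouse and state and tested with edgeR across 266 genes, with the mouse as a block. In this comparison 68 genes rose (25.6% of those tested) and 65 fell (24.4%), and both members were among those that rose. Ccl3 rose by 1.12 on the log2 scale (SE 0.16, edgeR quasi-likelihood test, adjusted p = 0.00336), a 2.18-fold difference, and Ccl4 by 1.02 (SE 0.14, adjusted p = 0.00316), a 2.03-fold difference. The within-mouse log2 ratios were 1.64, 1.01, 0.70 and 1.15 for Ccl3 and 1.34, 0.86, 0.63 and 1.24 for Ccl4, in the order of the mice above, so all 4 mice had the same direction. These values are relative to TMM scaling, which sets the bulk of the genes level between states. Scaling to library totals instead moved all genes by 0.49, gave 47 genes that rose and 121 that fell, and left rises of 0.63 for Ccl3 and 0.53 for Ccl4, both past the threshold, while limma on mean log-normalized values gave 1.97 for Ccl3.

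Genes around the pair did not all follow it in this comparison. Ccr1, a receptor of Ccl3, fell by 1.54 on the log2 scale. Of the other chemokine ligands, 8 of 16 could be tested, and 3 of them rose: Ccl5 by 2.32, Ccl6 by 1.67 and Cxcl16 by 1.04. Ccl2, the main ligand of Ccr2, fell by 1.68. Of 12 genes related to NF-kB and inflammation, 3 rose and 6 fell, with Il1b up by 1.63 and Il6, Tnf and Il1a at -1.15, -0.90 and -0.82. Cd14 and Tlr2, which were 2 of the 3 that rose, no longer passed the test with scaling to library totals, where Cd14 turned to -0.05. The early response genes Dusp2 (-0.81), Btg1 (-0.70), Dusp1 (-0.56) and Ier3 (-0.54) all fell, as did 5 of 5 tested. All 10 disease-associated genes rose, led by Lilrb4a (5.09), Spp1 (4.46), Itgax (3.06) and Lyz2 (2.83), which shows that the gate on Apoe and Cst7 took up that state. Of 5 homeostatic genes 3 fell, namely Selplg (-0.81), Cx3cr1 (-0.76) and Entpd1 (-0.54). The medians of the lists were 2.23 for the disease-associated genes and -0.45 for the NF-kB related genes, beside -0.14 over all genes tested.

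Among the microglia-like clusters, the share with a Ccl3 read ranged from 21% to 76.4% (means of 4 mice). The highest shares of both genes were in a cluster led by Lilrb4a, Il12b and Mmp12, with Csf1, Cst7, Apoe and Itgax also among its leading genes (1331 cells). There Ccl3 was read in 81.4%, 77.2%, 69.8% and 77.3% of cells and Ccl4 in 72.7%, 63.9%, 65.1% and 66.7%. A second cluster led by Cst7 and Spp1 (1117 cells) had nearly as many Ccl3-positive cells, 66.1% ± 6.75, but fewer Ccl4-positive cells, 40.1% ± 8.90 (SD, n = 4 mice). Its levels were 47.8 ± 15.3 reads per 10000 for Ccl3 and 22.5 ± 5.04 for Ccl4, against 100.2 ± 23.9 and 85.1 ± 20.3 in the first cluster. Clusters that shared the disease-associated genes thus differed in the pair. The first cluster was deeper, with a median of 36212 reads per cell against 22836, and the part of depth in this difference was not tested. A cluster led by Cxcl10, in which Tnf was also among the leading genes (1648 cells), came next for Ccl3, with reads in 50.8% ± 7.48 of cells, and its Ccl4 share, 43.2% ± 10.3, lay within the spread of that of the Cst7 and Spp1 cluster. A cluster led by Tnf and Ccl2 (1820 cells) lay near the microglial mean, with 35% ± 9.07 and 31.1% ± 7.59. The lowest Ccl3 shares were 21% ± 8.18 in a cluster led by Jchain, Ccr10 and C1qb and 21.4% ± 3.71 in one led by Oas2 and Ccr1. The share was 22.5% ± 1.09 in one led by Fosb and Icos, and these 3 do not differ beyond their spread. Another cluster led by Fosb, with Egr1 and Jun next, had Ccl3 reads in 26.9%, 29.6%, 24.7% and 30.4% of cells. Cycling microglia-like cells had Ccl3 reads in 29% ± 2.80 and Ccl4 reads in 32.2% ± 9.26 of cells.

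The immediate early score was the mean log-normalized value of Jun, Junb, Fosb and Egr1. Per 10000 panel reads, both genes were highest in the middle group of this score. Over all microglia-like cells the share of positive cells was lowest in the upper group. The cells of each mouse were split by this score into 3 equal groups, lower, middle and upper. In the upper group Ccl3 was found in 27%, 27.7%, 27.6% and 36.8% of cells, against 38.2%, 43.4%, 35.7% and 50.9% in the middle group and 46.2%, 44.8%, 31.6% and 45.3% in the lower group. The upper group was the lowest in every mouse, and the lower group was above the middle group in the Abi3+/+ mice and below it in the Abi3-/- mice. For Ccl4 the shares were 22.5%, 25.8%, 22.7% and 25.2% in the upper group, 38.7%, 35.7%, 34.4% and 37.5% in the middle group and 39%, 36%, 25.6% and 35.7% in the lower group. Per 10000 reads, Ccl3 stood at 37.6, 39.6, 26.3 and 52.2 in the upper, 68.6, 87.1, 44.9 and 78.4 in the middle and 65.4, 68, 24.5 and 43.5 in the lower group. The middle group was the highest in all 4 mice on that scale, and the upper group was the lowest in the Abi3+/+ mice only. Per mouse, 7.69% to 8.99% of microglia-like cells had a score within 0.1 of a limit between groups.

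The upper group was first compared with the lower group, in an edgeR test across 268 genes in which 57 genes rose (21.3%) and 55 fell (20.5%). Ccl4 fell by 0.68 (SE 0.10, edgeR adjusted p = 0.00541), and Ccl3 was at -0.52 (SE 0.22, edgeR adjusted p = 0.108), which did not pass. With scaling to library totals 105 genes rose and 42 fell, all genes moved by 0.30, and Ccl4 was at -0.37, still past the threshold. The Ccl4 call was lost with a gate on reads of Fosb and Egr1, where the difference was -0.090. The neighbouring groups were compared after the shape of the curve had been seen. From the middle to the upper group, where 32 of 269 genes rose (11.9%) and 24 fell (8.92%), Ccl3 fell by 0.83 (SE 0.07, edgeR adjusted p = 0.00095) and Ccl4 by 1.10 (SE 0.14, edgeR adjusted p = 0.00485). The 56 calls of this comparison dropped to between 29 and 34 with any 1 mouse left out. The within-mouse ratios were -0.78, -1.10, -0.78 and -0.68 for Ccl3 and -0.81, -0.99, -1.70 and -0.93 for Ccl4. From the lower to the middle group, where 35 of 270 genes rose (13%) and 36 fell (13.3%), Ccl3 was at 0.37 (SE 0.15, edgeR adjusted p = 0.117) and Ccl4 at 0.48 (SE 0.20, edgeR adjusted p = 0.121). Here the within-mouse ratios were -0.060, 0.14, 0.77 and 0.64 for Ccl3 and 0.011, 0.24, 1.26 and 0.43 for Ccl4. With TMM scaling the step was thus small in the Abi3+/+ mice, and Ccl3 was slightly lower in the middle group of Abi3+/+ mouse 1. The 71 calls of this comparison became 86 without Abi3-/- mouse 1 and dropped to 38, 31 and 30 without Abi3-/- mouse 2, Abi3+/+ mouse 1 and Abi3+/+ mouse 2. The Ccl3 and Ccl4 differences did not pass with TMM scaling and passed with scaling to library totals, where they were 0.58 and 0.69 and where 91 genes rose and 25 fell.

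**Figure D3:**
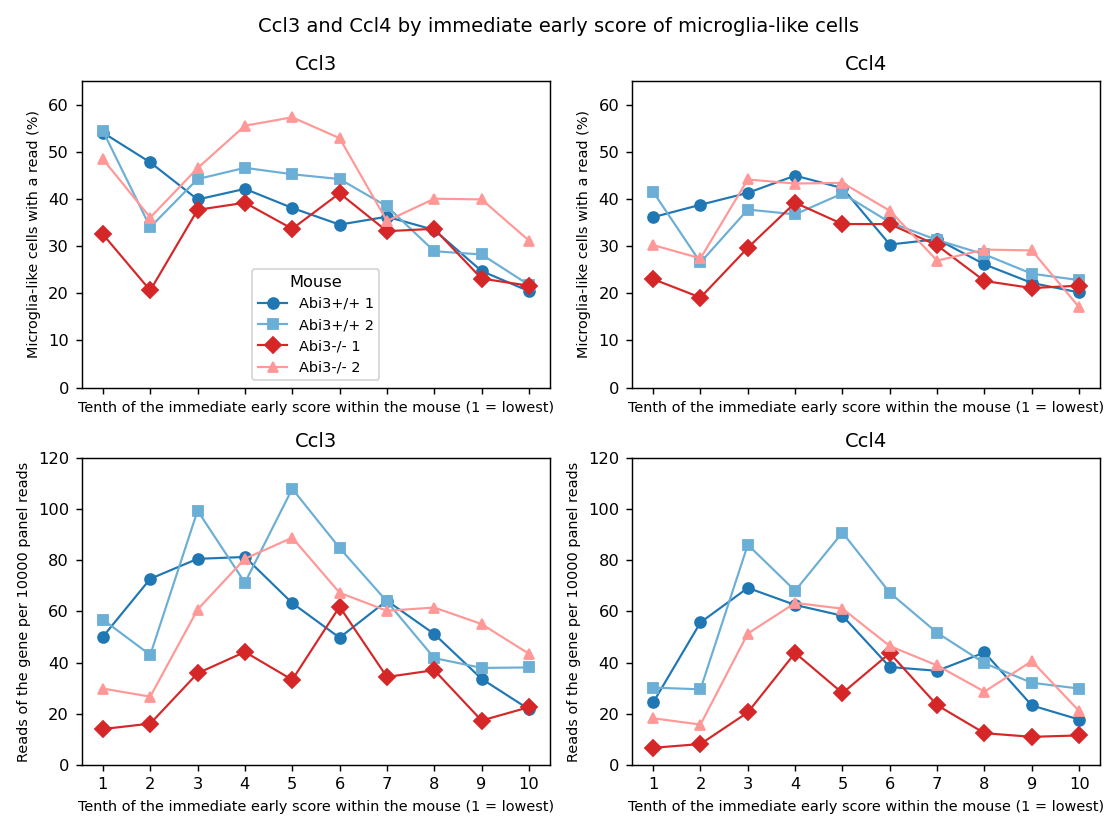
Percent of microglia-like cells with a read (upper row) and reads of the gene per 10000 panel reads (lower row) for Ccl3 (left) and Ccl4 (right), in 10 equal bins of the immediate early score within each mouse from lowest (1) to highest (10). All cells of bin 1 have a score of 0, and cells with equal scores were ranked by their order in the data. Where scores of 0 run on into bin 2, the split between bins 1 and 2 is not set by the score. In bin 10 Ccl3 is found in 20.4% to 31.2% of cells of each mouse, the lowest share of any bin except in Abi3-/- mouse 1, where bin 2 is lower at 20.6%, and levels of both genes peak in bins 3 to 6 in each mouse.

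The score groups also differed in the other state. Cells with reads of both Apoe and Cst7 made up 38%, 41%, 44.3% and 54.3% of the lower group, 9.69%, 10.9%, 31.7% and 31.3% of the middle group and 4.38%, 6.43%, 21.4% and 14.3% of the upper group. The pattern was therefore also read within cells with neither read and within cells with both reads, and not in those with 1 of the reads. Among cells with neither read, Ccl3 was found in 20.1% ± 4.81 of cells in the lower, 33.1% ± 4.79 in the middle and 25.6% ± 4.44 in the upper group, and Ccl4 in 17.6% ± 7.03, 28.1% ± 4.10 and 21.5% ± 1.79 (SD, n = 4 mice). The middle group was the highest for both genes in each mouse, and the order of the lower and upper groups differed between mice. Among cells with both reads, Ccl3 was found in 63% ± 11.6, 66.9% ± 12.2 and 50.6% ± 10.8 and Ccl4 in 44.3% ± 9.57, 54.3% ± 9.06 and 38.8% ± 8.59. Within these 2 states, the lower group was thus not above the middle group, except for Ccl3 in cells with both reads of Abi3+/+ mouse 1 (74.5% against 71.3%). Levels of Ccl3 in cells with both reads were 115.0, 130.5, 49.2 and 87.6 reads per 10000 in the middle group, each above the 78, 70.9, 29.8 and 51.2 of the lower group.

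Early response and inflammatory genes were mostly higher in the upper than in the lower score group. From the lower to the upper score group the 5 early response genes tested all rose, among them Dusp1 by 2.70, Dusp2 by 2.23, Ier3 by 1.30 and Btg1 by 1.2. Of 12 NF-kB related genes 7 rose and 1 fell, with Il1a at 0.95, Tnf at 0.89, Il6 at 0.74 and Icam1 at 0.52. Tlr2 was the one that fell (-0.44), and it did not pass with scaling to library totals. Of the other ligands, Ccl2 rose by 1.10, whereas Ccl6 (-1.06) and Cxcl16 (-0.86) fell, as did Ccl5 (-1.83), which did not pass with scaling to library totals. Ccr1 was at 0.45, which did not pass, and at 0.75 with scaling to library totals, which did. All 10 disease-associated genes fell, led by Lilrb4a (-3.66), Spp1 (-2.59), Itgax (-2.04) and Csf1 (-2.0), and 3 of 5 homeostatic genes rose (Selplg 0.47, Cx3cr1 0.43, Entpd1 0.31). From the middle to the upper group, where both members fell, none of the 12 NF-kB related genes passed as lower and 1 rose (Il1a, 0.30), with Tnf at -0.34 (edgeR adjusted p = 0.0847).

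Reads of Ccl3 and Ccl4 occurred in the same microglia-like cells more often than their separate shares would give. Both were found in 21.8%, 22%, 15.8% and 24.1% of microglia-like cells, against products of the separate shares of 12.4%, 12.6%, 8.73% and 14.5%. The ratio was 1.76, 1.75, 1.81 and 1.66, alike in all 4 mice. Of Ccl3-positive cells 58.6%, 56.9%, 50% and 54.3% had Ccl4, and of Ccl4-positive cells 65.2%, 67.6%, 57.4% and 73.4% had Ccl3. Among cells without Ccl3, by contrast, Ccl4 was read in 15.7% to 18.5%. The ratio was 1.93 to 2.33 in cells with neither Apoe nor Cst7 reads and 1.22 to 1.54 in cells with both, where the separate shares were high and leave less room for a larger ratio. In cells with reads of Apoe and Cst7, 69.7% to 87.8% of Ccl4-positive cells had Ccl3. Co-detection is a description with no test, since cells of a mouse are not replicates.

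**Figure D4:**
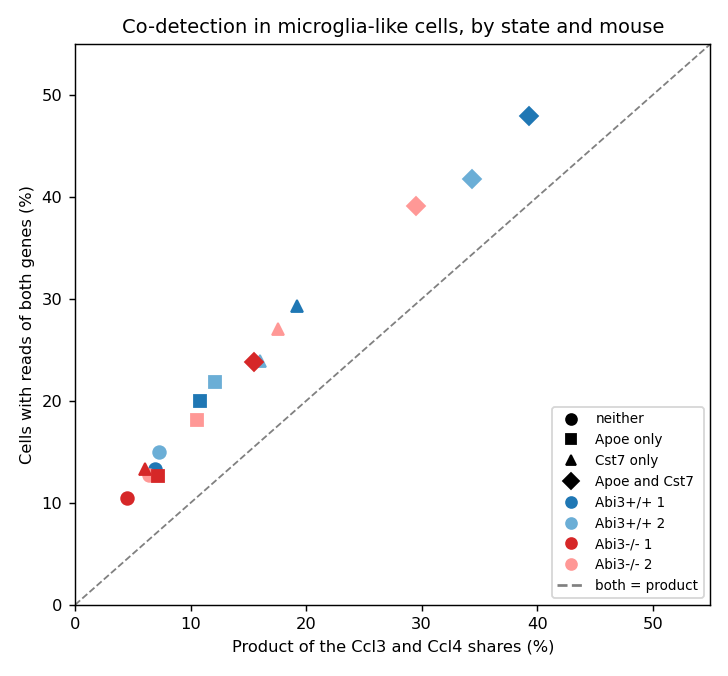
Percent of microglia-like cells with reads of both genes, against the product of the Ccl3 and Ccl4 shares, for each state (symbol) and mouse (colour). Every point lies above the dashed line of equality, and the 4 points of cells with both Apoe and Cst7 reads run from 23.8% to 47.9% on the vertical axis.

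Cells with both chemokines also had more reads of each. The median level of Ccl3 was 108.1, 99.5, 64.6 and 81.8 reads per 10000 in cells that also had Ccl4 and 42.3, 45.7, 33.8 and 36.4 in cells that did not. For Ccl4 the medians were 74.1, 92.5, 43.4 and 55.3 with Ccl3 and 31.9, 32.1, 20.2 and 24 without. The cells with both were deeper, with medians of 24721 to 31135 reads against 20686 to 26087 for Ccl3 alone, and the part of depth in co-detection was not tested. Reads of both Apoe and Cst7 were found in 44.6% ± 8.33 of cells with both chemokines, 35.8% ± 7.59 of cells with Ccl3 alone, 20.4% ± 9.65 of cells with Ccl4 alone and 15.5% ± 8.92 of cells with neither (SD, n = 4 mice). Tnf, an inflammatory cytokine, was read in 31.7% ± 3.83, 22% ± 3.04, 25.6% ± 5.52 and 15.4% ± 2.42 of these cells in the same order. Il1b, which encodes interleukin 1 beta, was rarer, read in 6.99%, 3.20%, 3.80% and 2.86% of these cells (means of 4 mice). In all 4 mice the Apoe and Cst7 state was thus more frequent among cells with Ccl3 alone than among cells with Ccl4 alone. Tnf was more frequent with Ccl4 alone in 3 of 4 mice, and its shares overlapped between mice.

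Across single microglia-like cells, the gene most like Ccl3 was Ccl4, with a Spearman correlation of log-normalized values of 0.47 (mean of 4 mice, range 0.40 to 0.49). Next to Ccl3 came Cst7 (0.26), Lilrb4a (0.24), Cd63 (0.21) and Lyz2 (0.21), and next to Ccl4 came Lilrb4a (0.23), Cd9 (0.20), Cd63 (0.17) and Cst7 (0.17). Apart from the pair itself these correlations are weak, and in sparse reads they are no more than an order. The lowest were Selplg (-0.30 with Ccl3 and -0.21 with Ccl4) and C1qa (-0.26 and -0.18). Over the means of 9 cell classes, the genes most like Ccl3 were Il6 (Pearson 0.97), Fscn1 (0.97), Cx3cr1 (0.96), Il1a (0.96) and Cd34 (0.96), and among those most like Ccl4 were Il6 (0.96), Il1a (0.95), Entpd1 (0.94) and Fscn1 (0.94). These are mostly genes of microglia as a class. The 2 scales differ in sign for Cx3cr1 and Ccl3, which correlated at 0.96 over classes and at -0.18 within microglia-like cells. Cells of a mouse share a library, and all values share the panel total.

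No difference between Abi3 genotypes passed the test for either gene. Summed over all microglia-like cells and given as TMM-scaled CPM, that is reads brought to a common library size, Ccl3 stood at 5470 and 5959 CPM in the Abi3+/+ mice and at 3365 and 6406 in the Abi3-/- mice. Ccl4 stood at 4132 and 4825 in Abi3+/+ and at 2244 and 4335 in Abi3-/-. The groups overlapped for both genes, since Abi3-/- mouse 2 lay among or above the Abi3+/+ mice and Abi3-/- mouse 1 lay below all others. The log2 difference, Abi3-/- minus Abi3+/+, was -0.23 for Ccl3 (SE 0.35, edgeR adjusted p = 0.949) and -0.45 for Ccl4 (SE 0.36, edgeR adjusted p = 0.882). Of 320 genes tested, 0 (0%) passed, with 23 at an unadjusted p under 0.05 and 10 calls by DESeq2. Without Abi3-/- mouse 1 the Ccl3 difference was 0.093, so its sign rested on that mouse. TMM moved all genes by 0.19 in this comparison, and with scaling to library totals the differences were -0.43 and -0.65. The share of cells with a Ccl3 read was 38% ± 8.97 in Abi3-/- and 37.9% ± 1.04 in Abi3+/+ (SD, n = 2 each, exact 2-sided permutation test, p = 1). For Ccl4 it was 30.2% ± 3.71 and 32.9% ± 0.60 (exact permutation test, p = 0.667). With 2 mice against 2, the smallest p this test can give is 0.33.

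**Figure D5:**
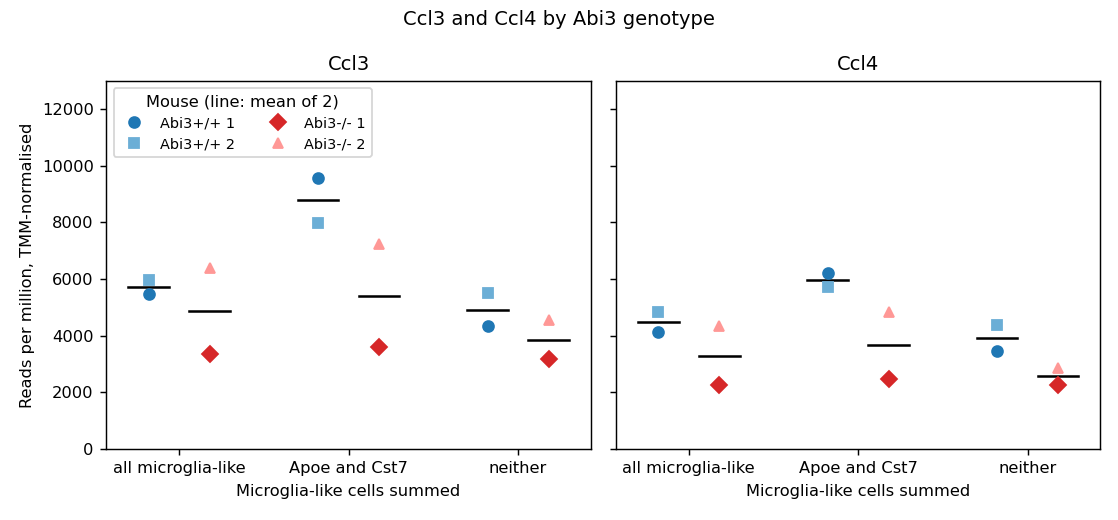
TMM-scaled CPM of Ccl3 (left) and Ccl4 (right) summed per mouse over all microglia-like cells, over those with Apoe and Cst7 reads and over those with neither, with a line at the mean of the 2 mice of each genotype (Abi3+/+ left, Abi3-/- right in each pair). In cells with Apoe and Cst7 reads the Abi3+/+ mice lie at 7972 and 9585 for Ccl3 and the Abi3-/- mice at 3601 and 7226.

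The make-up of the cells by state also differed between genotypes, which was not tested, since the share of microglia-like cells with reads of both Apoe and Cst7 stood at 32.4% and 33.3% for Abi3-/- and at 17.3% and 19.5% for Abi3+/+. Microglia-like cells of the genotypes also lay in different clusters, for example 826 and 550 Abi3+/+ cells against 35 and 139 Abi3-/- cells in the cluster led by Fosb and Icos, and 237 and 135 against 590 and 381 in the one led by Oas2 and Ccr1. The genotypes were therefore compared within states set by Apoe and Cst7 reads, and the part of the other clusters was not tested. In cells with both reads, Ccl3 stood at 9585 and 7972 CPM in Abi3+/+ and at 3601 and 7226 in Abi3-/-, and Ccl4 at 6209 and 5726 against 2468 and 4842. Both Abi3-/- mice lay below both Abi3+/+ mice for each gene, as 17.9% of the 268 genes tested did, so this order alone is a common one. The differences were -0.70 for Ccl3 (SE 0.38) and -0.71 for Ccl4 (SE 0.37), each with an edgeR adjusted p of 0.827. With each mouse left out they ranged from -1.27 to -0.28 and from -1.26 to -0.30, nearest to 0 without Abi3-/- mouse 1. In this state 0 genes (0%) passed, with 10 at an unadjusted p under 0.05 and 0 calls by DESeq2. The shares of cells differed by -16.3 percentage points for Ccl3 and -11.7 for Ccl4 (exact permutation test, p = 0.33 for each, the smallest it can give). Without Abi3-/- mouse 1 these share differences were -7.32 and -5.44.

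In cells with neither read, Ccl4 stood at 3466 and 4371 CPM in Abi3+/+ and at 2261 and 2863 in Abi3-/-, without overlap, as was the case for 23.4% of 282 genes. Its difference was -0.61 (SE 0.21, edgeR adjusted p = 0.428). Ccl3 stood at 4346 and 5498 against 3159 and 4536, with overlap, and differed by -0.36 (SE 0.25, edgeR adjusted p = 0.695). Again 0 genes (0%) passed, with 29 at an unadjusted p under 0.05 and 9 calls by DESeq2. The Ccl4 share in these cells was 20.6% and 20.6% in Abi3-/- and 25% and 25.8% in Abi3+/+. Over all microglia-like cells, 17.8% of the 320 genes had both Abi3-/- mice below both Abi3+/+ mice, and neither member was among them. None of the genes on the lists of other ligands, early response, NF-kB related, disease-associated and homeostatic genes passed in any of these 3 comparisons. In all microglia-like cells Ccr1 was at 2.14 (SE 1.04, edgeR adjusted p = 0.633).

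Whether the state differences themselves differed between genotypes was tested as an interaction. For Apoe and Cst7 the interaction was -0.40 for Ccl3 (SE 0.26, edgeR adjusted p = 0.518) and -0.16 for Ccl4 (SE 0.26, edgeR adjusted p = 0.806), with 0 of 266 genes called (0%), 42 at an unadjusted p under 0.05 and 18 calls by DESeq2. For the immediate early score, Ccl3 was the only one of 268 genes that passed (0.373%). From the lower to the upper score group, Ccl3 went from 7130 to 3537 and from 7066 to 3468 CPM in Abi3+/+ mice 1 and 2, and from 2695 to 2633 and from 5429 to 5421 in Abi3-/- mice 1 and 2. For Abi3+/+ the log2 ratios came to -1.01 and -1.03, for Abi3-/- to -0.034 and -0.0021, and the interaction was 1.00 (SE 0.08, edgeR adjusted p = 0.0411). Ccl4 had an interaction of 0.43 (SE 0.10, edgeR adjusted p = 0.297). The Ccl3 call was lost in 9 of 16 alternatives, among them scaling to library totals (0.94) and leaving out any 1 mouse other than Abi3-/- mouse 2, with adjusted p up to 0.883. In the lower score group, cells with reads of both Apoe and Cst7 made up 38% and 41% in Abi3+/+ and 44.3% and 54.3% in Abi3-/-, and in the upper group 4.38% and 6.43% against 21.4% and 14.3%, and the part of this in the Ccl3 interaction was not tested.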

How the data were processed

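Single cells of 4 mice were captured and sequenced with a targeted BD Rhapsody mouse immune panel. Per the study's methods the authors ran the BD Rhapsody targeted pipeline with default settings, and the labels name the mm10 build. The pipeline version is not given in the sources used here. The deposited counts are whole reads of each gene in each cell, adjusted for sequencing and PCR error by the pipeline (DBEC), so PCR copies of 1 molecule are not collapsed and intervals cover counting error only. Cells with fewer than 40 genes detected, or with more reads than the upper limit that the authors used, were left out. The study words its lower limit as unique reads, not genes, and the cells kept here are not exactly the ones it kept. No doublet caller was run beyond that limit. Cells were log-normalized to 10000 reads and clustered without Ccl3 and Ccl4 in Seurat 5.3.0 (R 4.3.3, 10 principal components, resolution 0.8). Clusters were named from marker lists when at least 3 of their 10 leading genes were markers, or as microglia-like when at least 8 of 11 microglial markers had reads in most cells, and means over mice use mice with at least 20 cells. The mouse was the replicate.

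Reads were summed per mouse, or per mouse and state with the mouse as a block, and tested with edgeR 4.0.16 (TMM scaling, low-count filter, quasi-likelihood test, Benjamini-Hochberg adjustment over all genes tested, threshold 0.05). Genes that defined a gate or score were left out of that comparison. SE is the log2 difference divided by the root of F. For shares, genotypes were compared with an exact permutation test over mice. Binomial intervals are exact (Clopper-Pearson, 95%), and the limit for a share of 0 is 3 counts of the total. Alternatives used DESeq2 1.42.0 and limma 3.58.1, scaling to library totals, other filters and resolutions, each mouse left out, the replicate number as a block, and thinning to 10000 reads, which leaves out cells with fewer. Tests were run on simulated data with known changes first. Named genes were the members, up to 4 genes per list and comparison with the largest change past the threshold, and the 5 genes most correlated with each member. Cd14, Tlr2 and the genes with the lowest correlations were added after their values had been seen. Results for some listed genes are not reported here. The members, gene lists and tests were chosen with earlier results of these data known. The comparisons of neighbouring score groups, and neutrophil-like cells without 1 library, were added after the data had been seen. Promoter sequence and gene positions are from RefSeq (GRCm38.p6).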

Additional observations from a re-analysis of the deposited data

Results flagged for a closer look

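In 4 of 30 sets of 4 mice that were tested with Dixon's rule, 1 mouse stood apart from the others, where chance marks about 1 set in 20. The sets come from the same 4 mice, share cells and mix the genotypes. Their number can therefore not be set against that rate, which holds for independent sets of like mice. Abi3-/- mouse 1 was the low one in 3 of the 4 marked sets. Its Ccl4 share was 27.6% of microglia-like cells, its Ccl3 share was 25% of cells with a Cst7 read only, and its Ccl3 share was 31.6% in the lower group of the immediate early score. Abi3-/- mouse 2 was the high one in the other set, with a Ccl3 share of 36.8% in the upper group.

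The Ccl3 difference between the upper and lower groups of the immediate early score differed between genotypes, by 1.00 on the log2 scale in the interaction test (edgeR adjusted p = 0.0411). The call was lost in 9 of 16 alternatives, among them scaling to library totals and leaving out any 1 mouse other than Abi3-/- mouse 2, with adjusted p up to 0.883.

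Cells that the filter left out also held the pair. Of cells with under 40 genes, 4.11% had a Ccl3 read and 2.46% a Ccl4 read (means of 4 mice). Of cells above the upper limit of reads, 80.9% had a Ccl3 read and 69.8% a Ccl4 read, above the shares of kept microglia-like cells, 37.9% and 31.6%. The Ccl3 share of these deep cells was 91.4%, 80.7%, 72.4% and 78.9% in Abi3+/+ mice 1 and 2 and Abi3-/- mice 1 and 2. Their levels, 53.9 ± 22.4 reads per 10000 for Ccl3 and 38.1 ± 17.9 for Ccl4, were near those of kept microglia-like cells, 53.3 ± 14.4 and 39.3 ± 13.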

How the results depend on the processing

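The rises of Ccl3 and Ccl4 with Apoe and Cst7 reads kept their direction and call in 16 of 16 alternatives each, at 0.63 to 1.97 for Ccl3 and 0.53 to 1.33 for Ccl4. The falls from the middle to the upper group of the immediate early score kept theirs in 15 of 15. The gate on Fosb and Egr1 reads was not among these 15 and was not run for neighbouring score groups. The fall of Ccl4 from the lower to the upper group was no longer called with limma (-0.49), without the cell filter (-0.39) or with Fosb and Egr1 reads as the gate (-0.090), and the middle against the lower group gave 0.48. Ccl3 in that comparison was called with DESeq2 (-0.55) and from the middle to the upper group (-0.83), was at 0.37 from the lower to the middle group, and ranged from -0.69 to -0.40 with each mouse left out, called without Abi3-/- mouse 1 (-0.61). The middle against the lower group was called for Ccl3 with scaling to library totals (0.58) and without the cell filter (0.57), with 0.25 to 0.54 when each mouse was left out, called without Abi3+/+ mouse 1 (0.54), and for Ccl4 with scaling to library totals (0.69) and without the cell filter (0.84). The number of genes called between upper and lower groups, 112, was 63 with the Fosb and Egr1 gate and 57 to 122 with each mouse left out, and between the middle and upper groups it was 56, and 26 to 114 over the alternatives.

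Between genotypes, Ccl3 ranged from -0.73 to 0.093 with each mouse left out and turned without Abi3-/- mouse 1, Ccl4 from -0.97 to -0.12, and the difference in the Ccl3 share ranged from -6.23 to 6.45 percentage points. Genes called were 10 with DESeq2 and 0 to 2 with each mouse left out over all microglia-like cells, 0 to 2 in cells with Apoe and Cst7 reads, and 9 with DESeq2 and 0 to 4 in cells with neither read. The interaction with Apoe and Cst7 had 18 calls with DESeq2, and with each mouse left out its Ccl3 value ranged from -0.71 to -0.081 and its Ccl4 value from -0.47 to 0.12, and limma gave -1.02 for Ccl3. The interaction of Ccl3 with the score was not called with scaling to library totals (0.94), no low-count filter (0.89), limma (0.91), no cell filter (1.02), resolution 0.4 (0.95) or the Fosb and Egr1 gate (0.49), and ranged from 0.84 to 0.97 with each mouse left out. Its genes called were 11 with DESeq2, 0 with the first 5 of these settings, 2 with the gate and 0 to 12 with each mouse left out. Where a call changed, the cause was not tested. With a mouse left out, the lone mouse of its genotype is assumed to vary like the others.

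Mice of the 2 genotypes share replicate numbers. Deviations of same-numbered mice correlated at 0.35 over 320 genes, but with 2 pairs and nothing in the labels behind the numbers this gives no pairing. With the replicate block, Ccl3 was at -0.30, -0.78 and -0.37 and Ccl4 at -0.52, -0.79 and -0.61 in all microglia-like cells, those with Apoe and Cst7 reads and those with neither, none of them called.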
